A study of Capra hircus with 4 samples.

Results

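The 6 genes NR5A1, NR5A2, GATA4, GATA6, FOXL2 and WT1, transcription factors known for setting and keeping the identity of granulosa cells (GCs), were followed by name through all nuclei of a single-nucleus RNA-seq survey of the goat ovary. All 6 of these genes were among the 28944 genes of the count matrices. One ovary library was made from each of 2 Nubian and 2 Du'an goats, all about 3 years old, with a litter size of 3 for the Nubian goats in the study's methods (at least 3 for the whole Nubian group in the labels) and of 1 for the Du'an goats. Every goat had carried a progesterone device (300 mg for 17 days) to bring estrus into step, and none had received hormones for superovulation. Breed, litter size and the individual animal cannot be told apart with 2 goats per breed, and the 4 libraries are named here by breed and replicate number. Where values of 4 goats are listed, they stand in the order Du'an replicate 1, Du'an replicate 2, Nubian replicate 1, Nubian replicate 2.

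GCs surround the oocyte, convert androgen to estrogen and make inhibins and activins. NR5A1 (SF-1) and NR5A2 (LRH-1) are orphan nuclear receptors that bind the same DNA motif and act on genes of steroid synthesis. NR5A1 is known from all steroid-making tissues, theca included, whereas NR5A2 is known in the ovary mainly from GCs and luteal cells. GATA4 and GATA6 are zinc finger factors that work with the NR5A receptors and are held in check or helped by the FOG cofactors ZFPM1 and ZFPM2. FOXL2 is a forkhead factor that keeps ovarian somatic cells from taking a testis fate, and its gene has a single exon. WT1 is a zinc finger factor of the early gonad, the kidney and the mesothelium, and in follicles it is known from GCs of early stages.

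After filtering, 44734 nuclei remained, 8723 to 15848 per library, with median depths of 1755 to 3292 UMIs per nucleus. Clusters were built without the 6 genes, which gave 4 GC states and 11 other classes. The other classes were named from marker lists. No cluster passed the naming limits with the GC markers. The GC clusters entered the GC set through deposited lists of GC subtype genes, drawn from these same nuclei, or through cell cycle genes. The study had drawn its GC subtypes from cells described as high in FSHR, NR5A1, CAMTA1 and CYTH3. The cumulus-like (6256 nuclei), progenitor-like (6235) and mural-like (6061) states were named after gene lists deposited for these subtypes, and the cycling state (1608) after cell cycle genes. All 9 GC markers, FSHR, INHA and FST among them, were called higher in the GC states than in the other classes by edgeR's quasi-likelihood test. For FSHR, CAMTA1 and CYTH3 this follows in part from the study's choice of cells. Within the GC set 7 of the 9 were called lower in progenitor-like nuclei. There their summed level was 1643 to 2953 CPM (counts of a gene per 1000000 counts of the sum), which overlapped the 869 to 2097 CPM of T- or natural killer (NK)-like nuclei and the 1448 to 4185 CPM of a shallow class with smooth muscle and stromal markers, so the GC label of progenitor-like nuclei rests on less than that of the other states. The states were unevenly spread over goats. Du'an replicate 1 had no mural-like nucleus, 4167 of the 6061 came from Nubian replicate 1, and 2720 and 2763 of the progenitor-like nuclei came from Du'an replicate 1 and Nubian replicate 2. A further 6179 nuclei stayed unnamed. Between 54 and 131 barcodes were shared by any pair of libraries.

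T- or NK-like nuclei were taken to hold none of these factors, so that their values serve as a background of RNA that did not come from the nucleus itself. This was assumed for each factor and not tested. That background was not small. The summed level of the 9 GC markers given above for T- or NK-like nuclei compares with 5529 to 7147 CPM in cumulus-like nuclei. For NR5A1, NR5A2, GATA4 and GATA6 it was highest in Nubian replicate 1, at 36.3, 280, 100 and 113 CPM. For WT1 it was low and even, between 13.8 and 18.7 CPM in the 4 goats. Counts were summed per goat and class, so that levels below are CPM of sums of at least 20 nuclei, and fold changes and adjusted p-values are from edgeR's quasi-likelihood test with goat as a covariate and Benjamini-Hochberg adjustment over all genes tested.

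**Figure D1:**
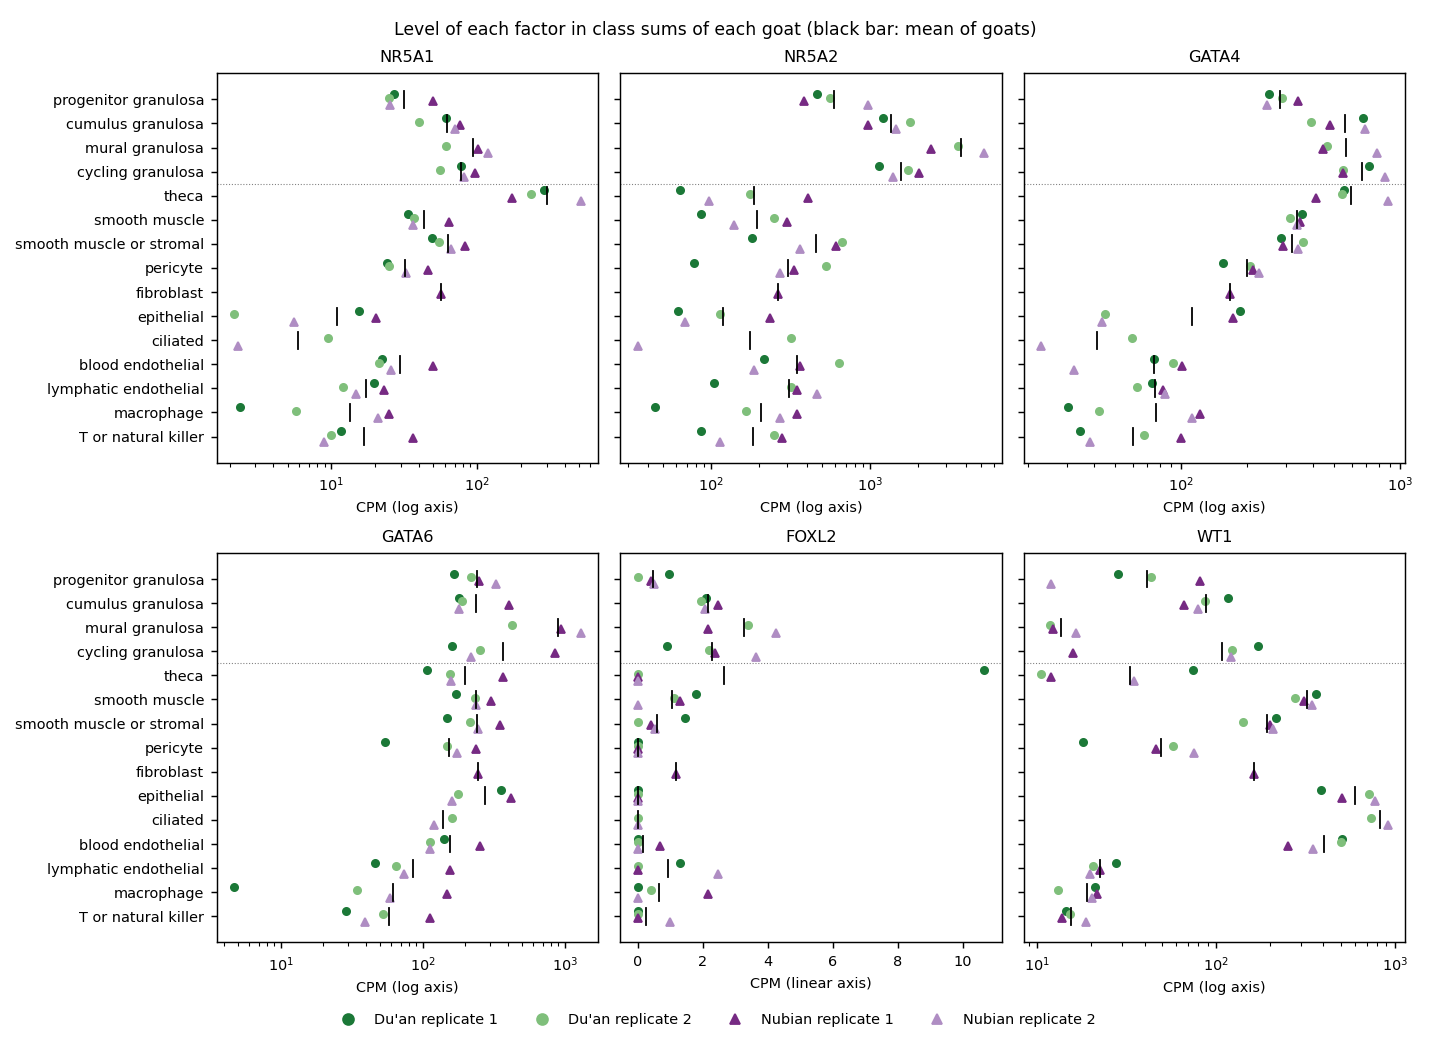
CPM of each of the 6 genes (horizontal axis, logarithmic except for FOXL2) in class sums of at least 20 nuclei (vertical axis), 1 point per goat with circles for Du'an and triangles for Nubian, and a black bar at the mean of goats. The 4 GC states stand above the dotted line. NR5A2 is highest in the 3 mural-like sums (2396 to 5222 CPM), NR5A1 in the 4 theca-like sums (173 to 517 CPM), and WT1 in ciliated-like and epithelial-like sums.

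The first comparison asked whether the factors mark GCs against the rest of the ovary. Of the 6 genes, 5 were called higher in the mean of the GC states than in the mean of the other classes, against 32.2% of the 15905 genes tested, and WT1 was called lower, against 18.2%. NR5A2 had a log2 fold change of 3.11 ± 0.20 (SE; adjusted p = 1.26e-18) and GATA4 of 2.17 ± 0.14 (adjusted p = 6.83e-19). GATA6 was higher by 1.62 ± 0.13 (adjusted p = 1.06e-14) and NR5A1 by 1.42 ± 0.13 (adjusted p = 2.32e-13). The calls of NR5A1, NR5A2, GATA4 and GATA6 are no independent support. The lists that placed GC clusters came from cells the study chose as high in NR5A1. As deposited, the mural list also holds NR5A1, NR5A2, GATA4 and GATA6, and the cumulus list holds GATA4. These genes were left out when the lists were used. WT1 was lower, at -0.95 ± 0.19 (adjusted p = 2.48e-05). FOXL2 passed too (adjusted p = 6.1e-06), but it was at 0 UMIs in 3 of the other classes, so its fitted fold is not given. Pooled over goats it had 1.86 CPM in GC states and 0.54 CPM in the other classes. The UMIs themselves were spread in the same way. GC states held 72.8% of all UMIs of the class sums, but 94.2% of the 202836 NR5A2 UMIs, 88.1% of GATA6, 87.1% of GATA4, 81.0% of NR5A1 and 35.3% of the 14263 WT1 UMIs. Of the genes tested 5126 were called higher and 2899 lower with TMM scaling, but 2889 and 4392 with median-ratio size factors and 2984 and 6927 with DESeq2. The median log2 fold change of all genes moved with the scaling, from 0.09 to -0.19 and -0.32, while the 6 calls kept their direction under all 3.

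NR5A2 followed the GC states in a steep series. In mural-like GCs it stood at 3578 CPM in Du'an replicate 2, 2396 in Nubian replicate 1 and 5222 in Nubian replicate 2. In cumulus-like GCs the 4 goats had 1205, 1769, 964 and 1455 CPM, a mean of 1348 ± 345 (SD, n = 4). Progenitor-like GCs had 463, 554, 384 and 968 CPM. In each goat the mural-like sum was above the cumulus-like sum and the cumulus-like sum above the progenitor-like sum, although over goats the cumulus-like and progenitor-like ranges touched at 964 and 968 CPM. Cycling GCs, at 1136 to 2026 CPM, overlapped the cumulus-like range. The background in T- or NK-like nuclei was 86.7 to 280 CPM, and theca-like nuclei, with 63.9 to 406 CPM, were above their own goat's background in 1 of 4 goats. Outside the GCs the highest NR5A2 mean was that of the shallow muscle or stromal class (453 ± 223, SD, n = 4), whose median depth was 789 to 913 UMIs per nucleus. The range of this class, 180 to 661 CPM, overlapped that of progenitor-like GCs, which were above it in 2 of 4 goats. Progenitor-like GCs had 1.37 to 8.54 times the T- or NK-like level of the same goat.

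NR5A1 had its highest level outside the GCs. Theca-like nuclei, which were defined by CYP17A1 (the enzyme that makes androgen) and other theca genes, had 288, 234, 173 and 517 CPM of NR5A1 in the 4 goats. These values did not overlap those of any other class, the next being mural-like GCs at 61.4, 101 and 119 CPM in the 3 goats that had them. Cycling and cumulus-like GCs, with means of 77.8 ± 17.1 and 62.1 ± 15.9 CPM (SD, n = 4), overlapped mural-like GCs and also the muscle or stromal class (63.0 ± 14.8). Progenitor-like GCs had 26.8, 24.9, 50.1 and 25.2 CPM, a range shared with pericyte-like and blood endothelial-like nuclei, and 1.38 to 2.84 times the T- or NK-like level of the same goat. The 296 theca-like nuclei were few (40 to 118 per goat), and their summed theca marker level was 680 to 1812 CPM against 9.85 to 38.9 CPM in T- or NK-like nuclei.

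The ratio of NR5A1 to NR5A2 was higher in theca-like nuclei than in cumulus-like, progenitor-like and mural-like GCs of the same goat, in each goat that had both. UMIs from the 3′ end do not give a ratio of molecules, but the change of the ratio between classes within a goat is free of that limit. The log2 of NR5A1 over NR5A2 was 0.92 ± 1.67 in theca-like nuclei and -4.44 ± 0.75 in cumulus-like GCs (SD, n = 4). Within goats it was higher in theca-like nuclei in 4 of 4 goats, by 2.44 to 6.76 and on average by 5.36 ± 1.98 (two-sided exact sign-flip permutation test over goats, at the smallest p that 4 goats allow; adjusted p = 0.25 over 10 ratio comparisons). The NR5A2 UMIs of theca-like nuclei were below the T- or NK-like level, as CPM, in 3 of 4 goats, so the size of the difference rests on a denominator at background. Nubian replicate 1 had the smallest difference and a theca-like ratio of -1.22, and its theca-like NR5A2 level (406 CPM) was 1.45 times its T- or NK-like level. Mural-like GCs had a lower ratio than cumulus-like GCs in 3 of 3 goats, by 0.40 to 1.09 (exact p = 0.25, the smallest that 3 goats allow).

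**Figure D2:**
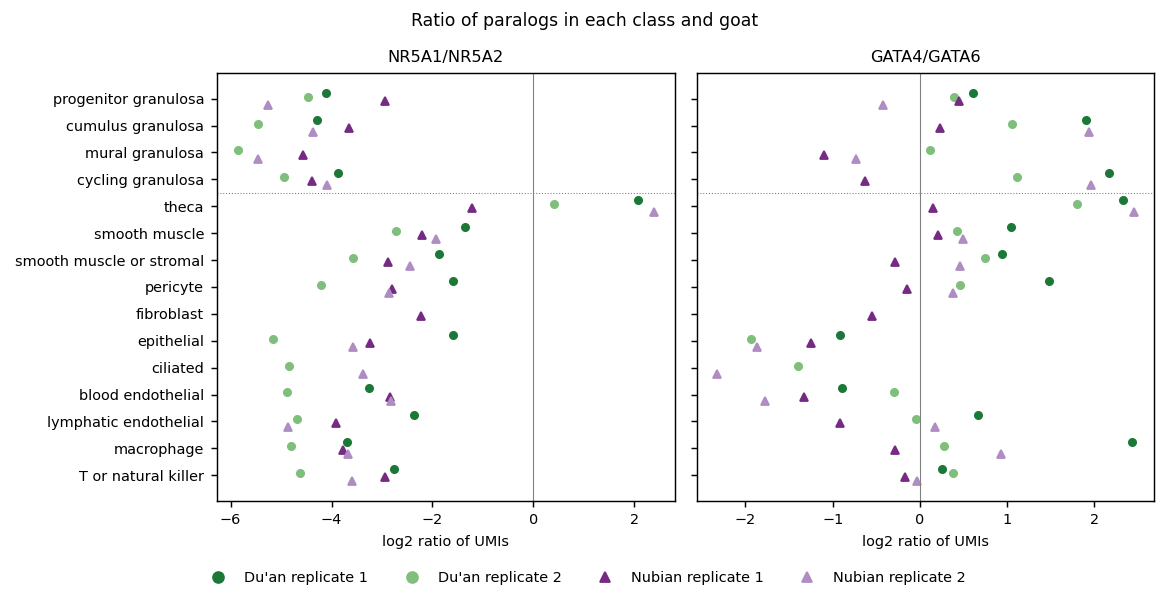
Log2 ratio of NR5A1 to NR5A2 UMIs (left) and of GATA4 to GATA6 UMIs (right) on the horizontal axes, by class on the vertical axis, with 1 point per goat. Theca-like nuclei stand furthest right for the NR5A pair (0.41 to 2.39 in 3 goats, with Nubian replicate 1 at -1.22), and mural-like GCs stand to the left of cumulus-like GCs for both pairs.

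GATA4 was shared by GCs, theca-like nuclei and the muscle classes. Cycling GCs had 719, 545, 550 and 851 CPM, theca-like nuclei 554, 543, 412 and 878 CPM, and cumulus-like GCs 678, 393, 475 and 688 CPM. With mural-like GCs (442 to 783 CPM) these 4 classes could not be ordered, since each range overlapped the next. Smooth muscle-like nuclei followed without overlap at 314 to 354 CPM, in a tight range of 338 ± 18.1 (SD, n = 4), which was 3.49 to 10.2 times the T- or NK-like level. Progenitor-like GCs, at 246 to 341 CPM, overlapped the lower part of the muscle or stromal class (285 to 358 CPM) and lay below the cumulus-like sum in 4 of 4 goats. Endothelial, macrophage-like and T- or NK-like nuclei all had means of 60.3 to 76.6 CPM.

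GATA6 had its highest level in mural-like GCs, while its level in the other GC states overlapped classes outside the GCs. Mural-like GCs had 428, 945 and 1303 CPM in Du'an replicate 2, Nubian replicate 1 and Nubian replicate 2, and in each of these goats they had the highest level of any class. Cumulus-like GCs had 181, 190, 407 and 179 CPM, and progenitor-like GCs 166, 220, 250 and 331 CPM, so that both states overlapped smooth muscle-like (172 to 304 CPM), theca-like (107 to 370 CPM) and epithelial-like nuclei (160 to 416 CPM). The background in T- or NK-like nuclei was 28.9 to 113 CPM. Cycling GCs spread from 160 CPM in Du'an replicate 1 to 851 CPM in Nubian replicate 1. That goat also had the highest T- or NK-like level and most nuclei of the mural-like cycling subcluster described below.

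The ratio of GATA4 to GATA6 was lower in mural-like than in cumulus-like GCs, and lower still in some classes outside the GCs. The log2 of GATA4 over GATA6 was 1.28 ± 0.81 in cumulus-like GCs (SD, n = 4) and -0.57 ± 0.62 in mural-like GCs (SD, n = 3), and it was lower in mural-like GCs of the same goat in 3 of 3 goats, by 0.93 to 2.68 (exact sign-flip permutation test, p = 0.25, the smallest that 3 goats allow). In epithelial-like nuclei it was below cumulus-like GCs in 4 of 4 goats, by 2.77 ± 0.97 on average (the smallest exact p that 4 goats allow; adjusted p = 0.25). Ciliated-like nuclei had the lowest ratio, -1.86 ± 0.65 (SD, n = 2), and blood endothelial-like nuclei had -1.07 ± 0.63 (SD, n = 4). GATA4 was 0.597 to 0.883 times the T- or NK-like level of the same goat in ciliated-like nuclei. It was 0.846 to 2.18 times that level in blood endothelial-like and 0.664 to 5.35 times in epithelial-like nuclei. These low ratios thus rest in part on a numerator near background. Theca-like nuclei lay at 1.68 ± 1.06 (SD, n = 4), with a difference from cumulus-like GCs of -0.07 to 0.75 that did not have one sign.

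FOXL2 was close to the limit of detection. In all class sums it had 235 UMIs, 212 of them in GCs. Cumulus-like GCs had 10, 31, 21 and 11 UMIs in the 4 goats, which is 2.12, 1.95, 2.46 and 2.08 CPM (mean 2.15 ± 0.22, SD, n = 4). Mural-like GCs had 34, 47 and 9 UMIs, or 3.38, 2.15 and 4.25 CPM. Pooled over goats, progenitor-like GCs had 24 UMIs in 6235 nuclei, or 0.68 CPM (exact Poisson 95% interval 0.44 to 1.02), below the interval of cumulus-like GCs (1.66 to 2.67) and close to the 0.54 CPM (0.34 to 0.81) of all other classes together, which had 23 UMIs in 18351 nuclei. These intervals cover counting error only. Epithelial-like nuclei had 0 UMIs, with an upper limit of 1.31 CPM by the same exact interval and 1.07 CPM at a floor of 3 counts, and T- or NK-like nuclei had 1 UMI. Of nuclei thinned to 1000 UMIs, 0.22% ± 0.14 in cumulus-like GCs and 0.47% ± 0.29 in mural-like GCs held a FOXL2 UMI (SD, n = 4 and 3), and 0 of 2235 T- or NK-like nuclei did.

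WT1 was mainly a gene of other classes. Epithelial-like nuclei had 386, 715, 507 and 781 CPM, and ciliated-like nuclei, which reached 20 nuclei only in Du'an replicate 2 and Nubian replicate 2, had 735 and 918 CPM. Blood endothelial-like nuclei followed with 511, 503, 254 and 348 CPM and smooth muscle-like nuclei with 365, 277, 312 and 347 CPM, and these neighbours overlapped. Lymphatic endothelial-like nuclei, by contrast, had 19.8 to 27.6 CPM, near the T- or NK-like level of 13.8 to 18.7 CPM. The summed smooth muscle markers were at 552 to 760 CPM in blood endothelial-like and 4899 to 7358 CPM in smooth muscle-like nuclei, and the summed stromal markers at 2355 to 3828 and 5289 to 7605 CPM. Their part in the blood endothelial-like WT1 level was not tested.

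Between mural-like and cumulus-like GCs WT1 differed in the opposite direction to NR5A2 and GATA6, in 3 of 3 goats. Cumulus-like GCs had 118, 87.3, 66.5 and 79.4 CPM, which was 4.24 to 8.14 times the T- or NK-like level of the same goat. Mural-like GCs had 11.8, 12.3 and 16.5 CPM, below the T- or NK-like level in 3 of 3 goats. Progenitor-like GCs ranged from 11.96 CPM in Nubian replicate 2 to 81.7 CPM in Nubian replicate 1, and cycling GCs from 16.0 CPM in Nubian replicate 1 to 172 CPM in Du'an replicate 1.

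The second comparison set each GC state against the mean of the other states, over 12703 genes tested. In mural-like GCs 4 of the 6 genes were called higher, against 8.88% of genes, and 1 lower, against 10.7%. The deposited mural list after which this state was named also holds NR5A1, NR5A2, GATA4 and GATA6, which were left out for naming. Their levels there follow in part from that naming, so the calls of NR5A1, NR5A2 and GATA6 are no independent support. NR5A2 was higher by a log2 fold change of 1.76 ± 0.25 (SE; adjusted p = 0.00112), GATA6 by 1.63 ± 0.34 (adjusted p = 0.00651), FOXL2 by 1.18 ± 0.35 (adjusted p = 0.0345) and NR5A1 by 0.91 ± 0.15 (adjusted p = 0.002). WT1 was lower, at -2.20 ± 0.66 (adjusted p = 0.037). GATA4 differed by 0.37 ± 0.18, which did not pass (adjusted p = 0.169). Of these 5 calls, that of FOXL2 was lost when Nubian replicate 1, Nubian replicate 2 or Du'an replicate 2 was left out, that of WT1 without either Du'an goat or without Nubian replicate 2, and that of GATA6 without Nubian replicate 2 (1.09, adjusted p = 0.0514). At clustering resolution 1.2 the calls of FOXL2 and WT1 were lost too.

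In progenitor-like GCs 4 of the 6 genes were called lower, against 16.1% of genes, and 0 higher, against 18.5%. The deposited lists that named the states hold NR5A1, NR5A2, GATA4 and GATA6 for mural GCs and GATA4 for cumulus GCs. None of the 6 is listed for progenitor GCs. The 6 were left out for naming, but their lower levels here follow in part from it. The calls of NR5A1, NR5A2 and GATA4 in this state are thus no independent support. The log2 fold change was -2.03 ± 0.42 for FOXL2 (SE; adjusted p = 0.00293), -1.75 ± 0.27 for NR5A2 (adjusted p = 0.00038), -1.29 ± 0.15 for NR5A1 (adjusted p = 5.47e-05) and -1.01 ± 0.17 for GATA4 (adjusted p = 0.000794). Without Nubian replicate 2 the call of FOXL2 was lost (-1.65). GATA6 and WT1, with log2 fold changes of -0.62 ± 0.33 and -0.30 ± 0.54, did not pass. WT1 was called lower in 3 alternatives (-2.41 to -1.18), and in 3 others its sign turned. In cycling GCs 2 were called higher, against 12.3%, and 0 lower, against 7.37%, namely GATA4 at 0.51 ± 0.16 (adjusted p = 0.04) and NR5A1 at 0.43 ± 0.14 (adjusted p = 0.0441), and both calls were lost in most fits that left out 1 goat. Cumulus-like GCs had 0 of the 6 called in either direction, against 7.12% higher and 6.47% lower. There the largest differences were those of WT1 (1.09 ± 0.47, adjusted p = 0.152) and GATA6 (-0.86 ± 0.33, adjusted p = 0.11). WT1 was called higher there at clustering resolution 1.2, with the highest doublet scores removed and without Nubian replicate 1 (1.28 to 1.95). Its pattern over states thus depends on these settings.

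**Figure D3:**
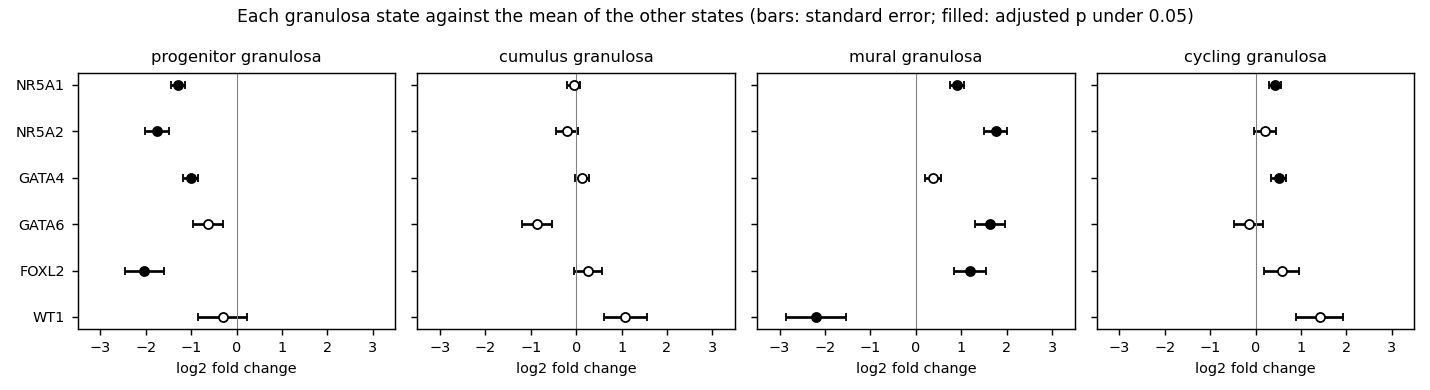
Log2 fold change of each gene (horizontal axis) in each GC state against the mean of the other states, with bars for the standard error and filled points for an adjusted p under 0.05. NR5A1, NR5A2, GATA6 and FOXL2 lie to the right of 0 in mural-like GCs while WT1 lies at -2.20, and NR5A1, NR5A2, GATA4 and FOXL2 lie to the left in progenitor-like GCs.

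The GC subclusters showed that the cycling state was mixed. It was made of 2 subclusters, 1 closer to cumulus-like GCs (number 9, 811 nuclei) and 1 closer to mural-like GCs (number 10, 797 nuclei, 742 of them from Nubian replicate 1). In the 2 goats with at least 20 nuclei of both, NR5A2 was 1507 and 2733 CPM in subclusters 9 and 10 of Du'an replicate 2, and 942 and 2147 CPM in Nubian replicate 1. GATA6 was 198 and 508 CPM in Du'an replicate 2 and 330 and 910 CPM in Nubian replicate 1. WT1 went the other way, from 145 to 27.5 CPM in Du'an replicate 2 and from 88.3 to 7.91 CPM in Nubian replicate 1. GATA4 differed least, with 546 and 540 CPM in the first goat and 477 and 558 CPM in the second. For NR5A2, GATA6 and WT1 subcluster 10 differed from subcluster 9 in the direction in which mural-like differed from cumulus-like GCs of the same goat, and for GATA4 it did not in either goat. For NR5A1 it did in Du'an replicate 2 (49.3 and 85.0 CPM in subclusters 9 and 10) but not in Nubian replicate 1 (116 and 94.9 CPM). Subcluster 10 rests on 40 nuclei in Du'an replicate 2.

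Progenitor-like GCs were also uneven. Subcluster 5, which had nuclei of 4 goats and raised fibroblast markers (mean log2 fold 1.16 over the list), held WT1 at 49.0, 46.2, 85.3 and 28.1 CPM in the 4 goats. Subcluster 7, mostly from Du'an replicate 1, held WT1 at 12.8, 9.91 and 17.4 CPM in the 3 goats with at least 20 of its nuclei, below subcluster 5 in each, although the Nubian replicate 1 value rests on 1 UMI in 24 nuclei. Subcluster 4, almost all from Nubian replicate 2, held 8.36 CPM there. GATA4 was likewise higher in subcluster 5 than in subcluster 7 in 3 of 3 goats, at 296 against 219 CPM in Du'an replicate 1, 351 against 159 CPM in Nubian replicate 1 and 266 against 206 CPM in Nubian replicate 2. The 2 cumulus-like subclusters overlapped for all 4 genes plotted. Each mural-like subcluster came almost wholly from 1 goat. Subcluster 2 had 4126 of 4175 nuclei from Nubian replicate 1, and subcluster 8 had 1447 of 1487 from Du'an replicate 2. Subcluster 11 had 397 of 399 from Nubian replicate 2. The mural-like sums of the goats thus come mostly from different subclusters.

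**Figure D4:**
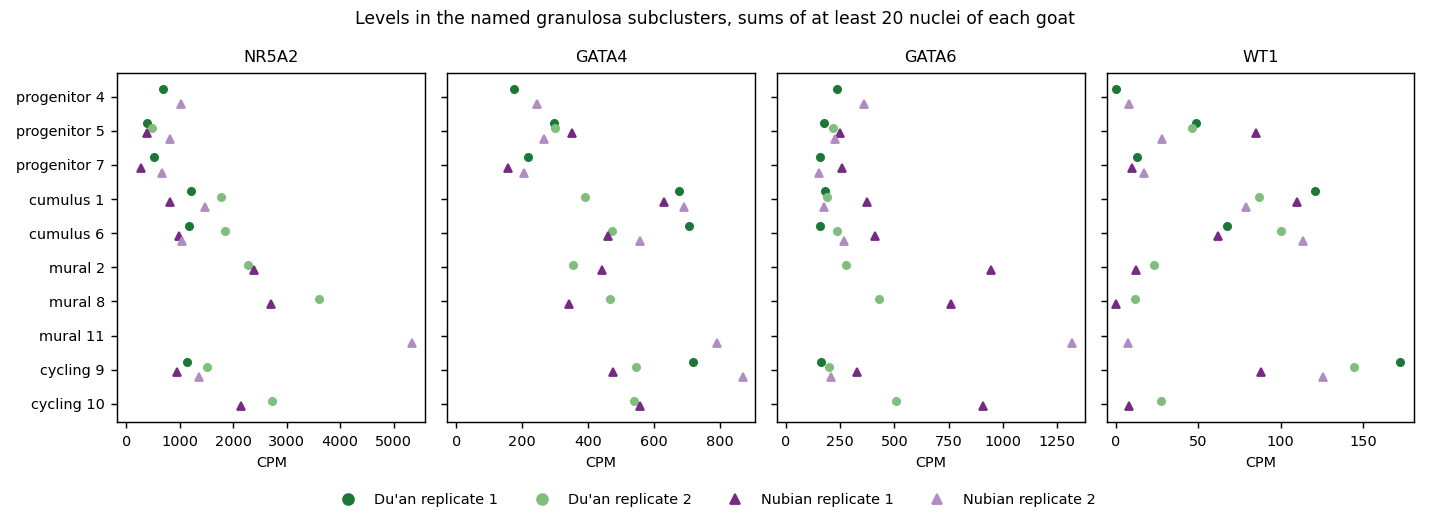
CPM of NR5A2, GATA4, GATA6 and WT1 (horizontal axes) in the named GC subclusters (vertical axis), with 1 point per goat where at least 20 nuclei were summed. Subcluster 10 of the cycling GCs lies with the mural-like subclusters, high for NR5A2 and GATA6 and low for WT1, and subcluster 9 lies with the cumulus-like ones.

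Shares of nuclei gave the same picture at an equal depth of 1000 UMIs per nucleus. An NR5A2 UMI was found in 84.4% ± 10.1 of mural-like, 61.9% ± 9.5 of cumulus-like and 35.4% ± 10.2 of progenitor-like GCs, against 12.3% ± 5.8 of T- or NK-like nuclei and 9.9% ± 6.6 of theca-like nuclei (SD, n = 3 for mural-like GCs and 4 otherwise). NR5A1 was found in 22.9% ± 12.3 of theca-like nuclei, 11.4% ± 4.0 of mural-like and 6.9% ± 1.8 of cumulus-like GCs, against 1.5% ± 1.4 in T- or NK-like nuclei. Progenitor-like GCs, at 3.4% ± 1.4, overlapped that background. A WT1 UMI was found in 42.5% ± 8.5 of epithelial-like and 27.3% ± 7.9 of blood endothelial-like nuclei, 7.4% ± 2.2 of cumulus-like GCs, 1.2% ± 0.3 of mural-like GCs and 1.0% ± 0.8 of T- or NK-like nuclei. Without thinning, NR5A2 was found in 95.1% of mural-like, 86.2% of cumulus-like and 68.0% of progenitor-like GCs and in 24.1% of T- or NK-like nuclei. At 1000 UMIs 190 of 6256 cumulus-like and 113 of 6061 mural-like nuclei were too shallow to be used.

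**Figure D5:**
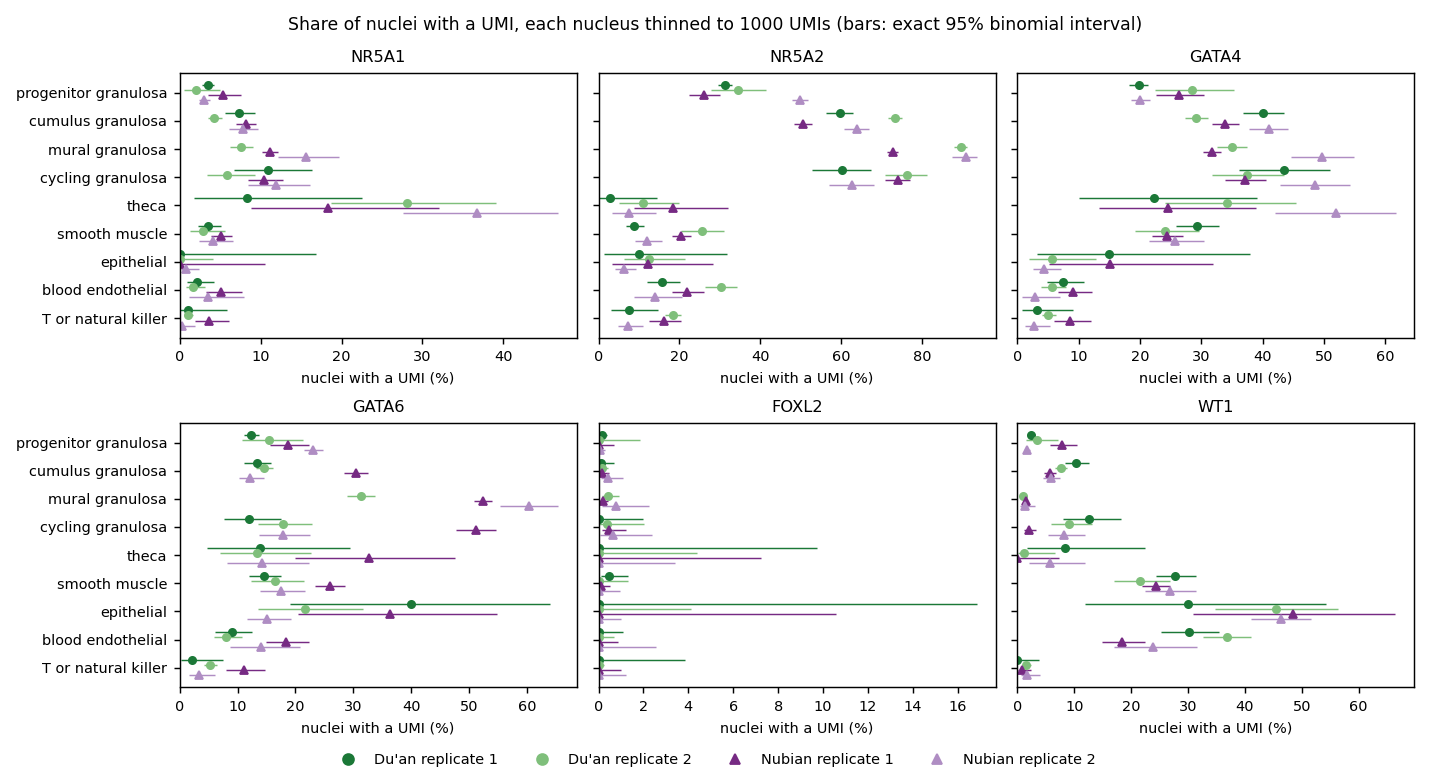
Percent of nuclei with a UMI of each gene (horizontal axis), by class (vertical axis) and goat, after thinning each nucleus to 1000 UMIs. Bars are 95% intervals of each share (exact binomial, for counting error alone). NR5A2 exceeds the T- or NK-like share in all GC states, and WT1 in mural-like GCs (0.892% to 1.49%) lies at that share.

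The share of nuclei in which 2 factors were found together was compared with the product of their own shares, in nuclei thinned to 2000 UMIs. For the 4 pairs made of NR5A1, NR5A2, GATA4 and GATA6 the quotient was 0.807 to 1.31 over the GC states and goats. In mural-like GCs, GATA4 and GATA6 were both found in 28.3% to 59.3% of nuclei of the 3 goats, at 0.974 to 1.04 times the product. NR5A2 and GATA6 were both found there in 50.2% to 82.0%, at 0.998 to 1.03 times the product. The 2 pairs with WT1, which few nuclei held, spread more widely, from 0.633 (NR5A2 and WT1 in progenitor-like GCs) to 1.39 times the product (GATA6 and WT1 in cumulus-like GCs). In theca-like nuclei NR5A1 and NR5A2 were found together at 0.229, 0.47 and 0.49 times the product in 3 goats and at 2.0 times in Du'an replicate 1, over 20 to 72 nuclei per goat, too few to read a departure from.

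The third comparison set each other class against the mean of the remaining non-GC classes. In theca-like nuclei 2 of the 6 genes were called higher, against 7.87% of the 15905 genes tested, with NR5A1 at a log2 fold change of 3.61 ± 0.20 (SE; adjusted p = 1.05e-19) and GATA4 at 2.12 ± 0.21 (adjusted p = 3.5e-11). NR5A2, at -0.63 ± 0.36, was not called (adjusted p = 0.248), and 1 was called lower, against 10.6%, WT1 at -2.55 ± 0.49 (adjusted p = 8.84e-05). Epithelial-like nuclei had 2 called higher, against 13.9%, WT1 at 2.70 ± 0.26 (adjusted p = 3.18e-12) and GATA6 at 0.78 ± 0.25 (adjusted p = 0.0187), the second of which was lost without either Du'an goat. A further 3 were called lower there, against 9.14%. They were NR5A1 at -2.30 ± 0.42 (adjusted p = 2.04e-05), NR5A2 at -1.27 ± 0.39 (adjusted p = 0.0124) and GATA4 at -0.94 ± 0.31 (adjusted p = 0.0198). Each of these 3 turned to a positive sign at clustering resolution 0.4, where NR5A2 and GATA4 were called higher. In ciliated-like nuclei WT1 alone was called higher, at 3.47 ± 0.32 (adjusted p = 4.71e-13), against 15.3% of genes, and NR5A1 (-2.12) and GATA4 (-1.62) were called lower, against 8.05%. With the highest doublet scores removed the call of GATA4 was lost there (-1.23).

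Smooth muscle-like nuclei had 4 of the 6 called higher, against 17.7%, with WT1 at 1.84 ± 0.25 (adjusted p = 7.99e-08), GATA4 at 1.61 ± 0.20 (adjusted p = 7.52e-09), GATA6 at 0.98 ± 0.22 (adjusted p = 0.000449) and NR5A1 at 0.83 ± 0.22 (adjusted p = 0.00305). That of NR5A1 was lost with the factors and markers among the variable genes (0.38). The shallow muscle or stromal class had 5 called higher, all but FOXL2, against 14.5%. Its WT1 call was lost with median-ratio size factors, with DESeq2 and without Du'an replicate 2, and its NR5A2 call with the factors and markers among the variable genes (0.31). Its NR5A2 call (1.11 ± 0.27, adjusted p = 0.00217) stands beside a summed GC marker level of 1448 to 4185 CPM in that class, above the 895 to 2358 CPM of smooth muscle-like nuclei, and the part of the one in the other was not tested. Blood endothelial-like nuclei had 2 called higher, against 16.0%, WT1 at 2.18 ± 0.25 (adjusted p = 5.66e-10) and NR5A2 at 0.87 ± 0.28 (adjusted p = 0.0186). The second of these was lost in 7 alternatives, among them without either Du'an goat and with DESeq2. None of the 6 was called higher in pericyte-like nuclei, against 6.42%, or in lymphatic endothelial-like (15.4%), macrophage-like (29.4%) or T- or NK-like nuclei (27.4%). Called lower were GATA4 in blood endothelial-like nuclei (-0.73, against 5.77% of genes), WT1 in pericyte-like nuclei (-1.46, against 4.10%), GATA4, GATA6 and WT1 in lymphatic endothelial-like nuclei (5.85%), and all but NR5A2 and FOXL2 in macrophage-like (17.1%) and T- or NK-like nuclei (21.3%). Many of these calls were not stable. GATA4 in blood endothelial-like nuclei was lost in 7 alternatives and WT1 in pericyte-like nuclei in 8. In lymphatic endothelial-like nuclei GATA4 and GATA6 were lost in 6 each. In macrophage-like nuclei GATA4 was lost in 3 and NR5A1 in 2, and in T- or NK-like nuclei NR5A1 in 3. With median-ratio size factors in place of TMM the count of genes called higher and lower moved from 1251 and 1688 to 1698 and 1256 in theca-like nuclei, from 2815 and 747 to 2072 and 1444 in smooth muscle-like nuclei, from 2307 and 413 to 1590 and 954 in the muscle or stromal class, and from 1021 and 652 to 1181 and 437 in pericyte-like nuclei.

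Lists of 4 kinds of gene were followed beside the factors. Of the cofactors and antagonists 16 of 18 were tested, and 10 were called higher and 3 lower in GC states than in other classes (against 32.2% and 18.2% of all genes), with a median log2 fold change of 0.31 against 0.09 over all genes. ZFPM1, the cofactor also called FOG1, was higher by 1.37 (adjusted p = 2.08e-11) and PPARGC1A, a coactivator of nuclear receptors, by 0.86 (adjusted p = 0.0103), while PROX1, a gene of lymphatic endothelium that can repress NR5A2, was lower, at -1.46 (adjusted p = 2.82e-08). PROX1 was also a marker that named the lymphatic endothelial-like class. Its lower level in GC states follows in part from that naming, and the counts above include it. Between GC states ZFPM2, or FOG2, rose in mural-like GCs by 1.76 (adjusted p = 0.0122) and was lower in cumulus-like GCs, at -1.81 (adjusted p = 0.0191), with 4631 to 6476 CPM against 717 to 1063 CPM. CITED2 was called in all 4 states, higher in progenitor-like (1.84) and mural-like GCs (0.77) and lower in cumulus-like (-1.02) and cycling GCs (-1.59). Progenitor-like GCs also had higher SMAD3 (1.03) and lower ZFPM1 (-1.04) and PPARGC1A (-1.59).

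Of the 4 other GATA genes GATA2, GATA3 and GATA5 were tested, and none was called between GC states and other classes by edgeR. Each was at 0 in some classes, so no fold is given. GATA3, a factor of T cells singled out after its values were seen, averaged 94.8 ± 44.9 CPM in T- or NK-like nuclei (SD, n = 4) and 10.1 ± 9.3 CPM in epithelial-like nuclei, and its mean was under 0.19 CPM in each GC state. Of the early gonad and sex-differentiation genes 15 of 20 were tested, and 7 were called higher and 3 lower in GC states, against the same 32.2% and 18.2%. IRX5 rose by 3.34 (adjusted p = 1.18e-10) and BNC2 by 1.21 (adjusted p = 1.88e-15), and WNT4, NR2F2 and NR2F1 were lower, at -2.82, -2.29 and -1.76. NR2F2 was also among the stromal markers used for naming, so its lower level in GC states follows in part from that naming. Between states EMX2 followed WT1, higher in cumulus-like (1.54, adjusted p = 0.0312) and lower in mural-like GCs (-2.82, adjusted p = 0.0106).

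Genes of steroid and hormone synthesis that these factors are known to act on moved with the mural-like state. Of 17 tested, 14 were called higher and 0 lower in GC states than in other classes (32.2% and 18.2% of all genes; median log2 fold change 1.25 against 0.09 over all genes). In mural-like GCs 9 of 16 were called higher and 1 lower (8.88% and 10.7% of all genes), with a median of 1.21 against -0.03, and in progenitor-like GCs 1 was called higher and 9 lower (18.5% and 16.1%), with a median of -1.28 against -0.02. LHCGR, the receptor for luteinizing hormone, rose in mural-like GCs by 4.68 (adjusted p = 0.000789), CYP19A1, or aromatase, by 4.62 (adjusted p = 0.000917), INHBA by 3.23 (adjusted p = 0.0014) and STAR by 2.38 (adjusted p = 0.00533). The study used CYP19A1, LHCGR and INHBA as markers of its mural GCs, and the mural-like state was named after its mural list without these genes. Their rise there follows in part from that naming and is no independent support, and the counts above include them. AKR1B1 was lower there, at -1.76 (adjusted p = 0.0201), and higher in cumulus-like GCs (2.54, adjusted p = 0.000932), as was IHH (2.32, adjusted p = 0.00278), a ligand by which GCs signal to theca. PRLR was the 1 gene of the list that rose in progenitor-like GCs (2.71, adjusted p = 1.43e-05). CYP19A1 had 1984 to 4132 CPM in mural-like GCs and 0 to 294 CPM in T- or NK-like nuclei.

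Some genes shared the pattern of a factor over the 54 class sums. This is a description over sums that share goats and cell types. GATA4 was among the 3 genes nearest to NR5A1 (Pearson r of log2(CPM + 1) = 0.86), after RNF144A (0.87) and LOC102186671 (0.86). Nearest to NR5A2 were HS6ST2 (0.92), GALNT13 (0.91) and GCLC (0.89), to GATA4 ME1 (0.93), MUM1L1 (0.91) and PDE8B (0.90), and to GATA6 PRKD1 (0.89), ADAMTS3 (0.86) and RYK (0.86). WT1 was nearest to LOC108637654 (0.91), CTTNBP2 (0.81) and TENM3 (0.80). FOXL2, with few UMIs per sum, reached 0.71 with PKD2L1.

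The breed comparison asked whether the factors differed between Nubian and Du'an goats within a state. None of the genes tested, the 6 factors included, was called in progenitor-like, cumulus-like, mural-like or cycling GCs or in theca-like nuclei by edgeR (0% of 12966, 12423, 13326, 9828 and 4179 genes), with 208, 294, 459, 216 and 70 genes at an unadjusted p under 0.05 and 2, 11, 17, 3 and 0 genes called by DESeq2. FOXL2 was too low to be tested in progenitor-like and cycling GCs and theca-like nuclei, and WT1 in theca-like nuclei. Without FOXL2, the breeds did not overlap in 9 of 25 pairs of factor and class, against 35.8% of all genes tested in these classes, so that the factors did not stand apart from other genes in this count. The Nubian mean was higher in 19 of 25 on the log2 scale, against 51.4% of all genes tested. GATA6 had mean CPM in Nubian and Du'an goats of 290 and 193 in progenitor-like GCs and 265 and 131 in theca-like nuclei, without overlap between breeds. In theca-like nuclei the goats had 106.6, 155.5, 370.0 and 159.3 CPM, so the gap of the means rests mostly on Nubian replicate 1. The Du'an replicate 1 value rests on 10 UMIs in 40 nuclei. In mural-like GCs, where Du'an had 1 goat that is assumed to vary as the Nubian goats do, GATA6 was 1124 and 428 CPM and its log2 fold change 1.41 ± 0.40 (SE; adjusted p = 0.9998). NR5A1 was higher in both Nubian goats than in both Du'an goats in cumulus-like (73.4 and 50.8 CPM) and cycling GCs (89.2 and 66.4 CPM). WT1 was lower in both Nubian goats in the same 2 states, at 73.0 and 102.5 CPM and at 68.5 and 148 CPM. In cycling GCs the goats had 172.5, 123.9, 16.0 and 120.9 CPM, so the gap of the means rests mostly on Nubian replicate 1. Of its 833 cycling nuclei 742 were in the mural-like subcluster 10, where WT1 was 7.91 CPM. With 2 goats against 2 the exact permutation test cannot go below p = 0.333, so these are values, not called differences.

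The deposited tables of GC genes gave a share of nuclei per subtype and follicle stage, pooled over goats by the authors, for genes that passed their limits. For mural GCs they listed NR5A2 with 91.2% of nuclei, GATA6 with 79%, GATA4 with 69.3% and NR5A1 with 36.4%. The mural-like state above was named after this list without these 4 genes, so the list and the calls in that state are not independent. For cumulus GCs GATA4 alone of the 6 was listed, with 68.6%, and for common progenitor GCs none was. By stage, antral GCs were listed with the same 4 genes (NR5A2 91.8%, GATA6 80.2%, GATA4 71%, NR5A1 37.4%), secondary GCs with GATA4 (71%) and primary GCs with GATA4 (69.9%) and WT1 (27.1%). FOXL2 was listed in neither table, and no class of the tables listed a gene found in less than 18.3% of its nuclei. These shares are not thinned to a common depth.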

How the data were processed

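Single-nucleus RNA was counted in 1 ovary library per goat (10x 3′ chemistry). The deposited matrices hold raw UMI counts per gene and nucleus, and the labels name Cell Ranger 5.0.0 and Seurat for their making. The study's methods point to a reference genome at NCBI by its assembly identifier, and the assembly's name was not given in the sources used here. The 2 deposited tables of GC genes hold the fraction of nuclei with a UMI in a class, pooled over goats by the authors, and also fold changes and p-values of the authors' own comparisons, which were not used.

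Nuclei within 2 SD of the library mean for genes and UMIs and at most 20% mitochondrial UMIs were kept, following the study's limits. Depth was 1755 to 3292 UMIs per nucleus (median), which limits the precision for genes of few UMIs such as FOXL2, and all intervals and floors cover counting error only. Scrublet marked 151 doublets in 1 library and 0 in the other 3, so it cannot be taken to have worked there, and an alternative removed the highest doublet scores. Variable genes (2000) were chosen without the 6 factors, the markers and the listed genes. Clusters (scanpy 1.11.5, Leiden resolution 0.8, and 0.5 within GCs) were named from marker lists outside the GCs. GC clusters were placed by the deposited subtype lists or by cell cycle genes. Nuclei that no list placed in a class stayed unnamed, as did GC subclusters 3 and 12, which had raised markers of other classes. Some shallow clusters were named, that of the muscle or stromal class among them. The limits for naming were set after seeing the data, and rebuilt names may differ from the authors' own. The 6 factors, lists and classes were chosen with earlier results of these data known. The genes named beside the factors were those with the largest fold changes called in their list, and the 3 genes most alike in pattern.

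UMIs were summed per goat and class (at least 20 nuclei) and tested with edgeR 4.0.16 (R 4.3.3; quasi-likelihood test, TMM, Benjamini-Hochberg over all genes tested, call at 0.05), with goat as a covariate between classes and breed alone between breeds. Such tests compare classes built from other genes of the same nuclei. Between classes the p-values measure the scatter left between sums once goat and class are taken out. The sums of a goat are taken as independent beyond that, so these p-values do not measure the spread between the goats themselves. Between breeds they measure the spread between goats. Ratios of summed UMIs (0.5 added) were compared within goats by exact sign-flip tests. On simulated counts the test of GC states against other classes recovered 85.9% of genes changed by 1 on the log2 scale and 96.8% of those changed by 2 (14645 genes), and the breed test in cumulus-like GCs 16.7% and 75.3% (12142 genes). The simulated sums were drawn independently from 1 mean per gene, with a spread read from a trend over genes. They held no differences between goats or classes beyond the set change, so these shares may be too high for the real sums. Fibroblast-like nuclei (536 in Nubian replicate 1) could be summed in 1 goat and were not set against other classes. Alternatives were median-ratio size factors, DESeq2 1.42.0, other filters, clusterings and thinning depths, a replicate block, and each goat left out. Leaving out the shallow muscle or stromal class and crossing the block were added after seeing the data.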

Additional observations from a re-analysis of the deposited data

Results flagged for a closer look

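Among 57 groups of 4 goats (1 factor in 1 class), 7 held a goat far from the other 3, where chance gives about 1 in 20. Nubian replicate 1 was that goat in 6. Its NR5A1 level was 36.3 CPM in T- or NK-like, 50.1 CPM in blood endothelial-like, 64.6 CPM in smooth muscle-like nuclei and 50.1 CPM in progenitor-like GCs, each above the other goats. Its GATA6 level was 407 CPM in cumulus-like and 851 CPM in cycling GCs. Of its 833 cycling nuclei 742 were in the mural-like subcluster 10, where GATA6 was 910 CPM, against 330 CPM in its subcluster 9. This library also held 4167 of the 6061 mural-like nuclei, and its T- or NK-like nuclei had the highest NR5A1, NR5A2, GATA4 and GATA6 of the 4 goats. The part of that background in these values, and of the mix of subclusters in the cycling value, was not tested. The seventh group was WT1 in macrophage-like nuclei, where Du'an replicate 2 was low at 13.0 CPM.

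Nuclei left unnamed also held the factors, at more than the background of T- or NK-like nuclei in all 4 goats. In a shallow cluster (number 5) the mean over goats was 829 CPM for NR5A2, 297 CPM for GATA4, 214 CPM for GATA6 and 62.6 CPM for WT1. In unnamed GC subcluster 3, whose leading genes included hemoglobin HBBC and ALAS2 of heme synthesis, it was 87.6 CPM for NR5A1, 1253 CPM for NR5A2, 383 CPM for GATA4, 355 CPM for GATA6 and 49.3 CPM for WT1. These nuclei had a median of 840 UMIs and entered no comparison.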

How the results depend on the processing

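All 6 calls between GC states and other classes stayed calls under each of the alternatives, the shallow class left out included (chosen after seeing the data). Between GC states 11 calls were made in the main setting and 6 to 11 with 1 goat left out. The fewest came without Nubian replicate 2, and 7 without Du'an replicate 2. These totals also count new calls. Without Nubian replicate 1 the calls of FOXL2 in mural-like GCs and of NR5A1 and GATA4 in cycling GCs were lost. In that fit WT1 was newly called in cumulus-like, progenitor-like and cycling GCs. Between other classes 35 calls were made in the main setting, 20 at clustering resolution 0.4, and 20 to 33 with 1 goat left out. The fewest with a goat left out came without Du'an replicate 2. These totals count new and opposite calls too. At resolution 0.4 GATA4 was newly called higher in pericyte-like nuclei (0.85) and NR5A2 lower in T- or NK-like nuclei (-0.92). In epithelial-like nuclei NR5A2 and GATA4, called lower in the main setting, were called higher at that resolution. Between breeds 0 factor calls became 2 with no low-count filter, GATA6 (1.51) and WT1 (-1.11) in cycling GCs, and 0 to 2 with 1 goat left out, the same pair without Nubian replicate 2 (2.18 and -3.04). Genes called between breeds over all 5 classes rose from 0 to 816 with no filter, 52 without the highest doublet scores, 33 with DESeq2 and 1 to 266 with 1 goat left out. The share of cumulus-like GCs with an NR5A2 UMI moved from 61.9% to 78.1% at 2000 UMIs and 86.2% without thinning. The NR5A ratio difference between theca-like nuclei and cumulus-like GCs was 4.89 to 6.33 with 1 goat left out.

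Signs turned in epithelial-like nuclei, where NR5A2 reached 1.52 and 0.42 at clustering resolutions 0.4 and 1.2 and 0.0905 with the factors among the variable genes, GATA4 1.33 and 0.20 at the same resolutions, and NR5A1 0.59 at 0.4. WT1 in progenitor-like GCs, not called in the main setting, turned to 0.00708 at subclustering resolution 0.8 and ranged from -1.18 to 0.18 with 1 goat left out. Of 816 values of single factors under alternatives, 704 kept sign and side of the threshold, 84 lost a call, 19 gained one and 9 turned. The cause of these moves was not tested.

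Goats of the 2 breeds share only a replicate number. Their deviations correlated at -0.27 in progenitor-like, -0.04 in cumulus-like and -0.26 in cycling GCs and -0.24 in theca-like nuclei. A replicate block, and the crossed pairing added after seeing the data, both gave 0 calls among the factors and among all genes. Mural-like GCs could not be fitted with a block.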
